A study of Mus musculus with 7 samples.

Results

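The Hox genes are the homeobox genes of the Hoxa, Hoxb, Hoxc and Hoxd clusters, and 10 of them could be followed in 2 fat depots of the mouse. They were taken by symbol, as every gene named Hoxa, Hoxb, Hoxc or Hoxd plus a number on a probe with exactly 1 gene symbol, out of 9294 genes measured that way. The RefSeq table lists 39 such genes. The 10 are Hoxa2, Hoxb2, Hoxc4, Hoxa5, Hoxa6, Hoxb6, Hoxc8, Hoxd8, Hoxc9 and Hoxc10, and each had 1 probe. By cluster, 3 belong to Hoxa, 2 to Hoxb, 4 to Hoxc and 1 to Hoxd. No low-signal filter was applied, so all 10 entered the test. One further probe carries the symbols of both Hoxb4 and the microRNA gene Mir10a and therefore falls outside the rule.

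Hox genes encode transcription factors that give cells an address along the head-to-tail axis. Within a cluster they lie in the order in which they act, so that low paralog numbers mark anterior tissue and high numbers posterior tissue. Adult fibroblasts and fat precursors keep much of this code, and fat depots taken from different places are known to differ in it. Hoxc8 is expressed in the trunk from the thorax backwards during development, and in fat cells it is known as a repressor of the brown fat programme that the microRNA miR-196a holds in check.

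The study measured RNA of paracardial fat (pCF), which lies next to the heart, on 4 Affymetrix arrays and of intra-abdominal fat (iVF) on 3 arrays. All samples came from wild-type male mice of strain C57, and neither a treatment nor an age is stated in the labels. The samples of a depot are named biological replicates, with nothing on whether they come from separate animals, and p-values cover only the variation among these arrays. Values are on the deposited log2 scale, a difference is paracardial minus intra-abdominal, and the number of arrays limits its precision. Where values of single arrays are listed, they stand in the order of the replicate numbers, for which the labels give no meaning beyond the name.

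The arrays did not all match their labelled tissue equally well. Of 14 adipocyte markers 10 were measured, and their mean log2 value was 6.08, 6.24, 9.69 and 10.4 in paracardial and 14.4, 14.9 and 15.9 in intra-abdominal fat. Adipoq, the adipocyte hormone adiponectin, stood at 5.18 and 5.53 on paracardial arrays 1 and 2 against at least 9.73 on the other 5. The 6 measured of 10 thymocyte markers had means of 10.8 to 13.5 on the paracardial arrays and 10.2, 7.58 and 7.0 on the intra-abdominal ones. Of these 6, 2 passed as higher in paracardial fat and 4 did not pass, among them Cd1d1, which also marks other cells and had a difference of -3.29. Of the other marker lists, 5 of 7 thymic epithelial and 3 of 5 T and NK cell genes passed as higher in paracardial fat. None passed among 6 B cell, 7 myeloid, 3 mesothelial and 3 epididymis and testis markers, and none of the cardiac muscle markers was among the genes tested. Paracardial array 4 and intra-abdominal array 3 also had a lower 5th percentile of all probes (3.99 and 4.0) than the other 5 arrays (4.38 to 4.44), so they are called array set 2 below and the other 5 array set 1. In bulk tissue fewer cells of a type and less RNA per cell cannot be told apart.

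Hoxc8 was the only one of the 10 Hox genes past the threshold, with less signal in paracardial fat. The 4 paracardial arrays had log2 values of 4.25, 4.30, 4.06 and 4.04 and the 3 intra-abdominal arrays 7.45, 8.72 and 11.92. The 4 paracardial values lay within 0.259 of each other and the 3 intra-abdominal values spread over 4.47, with a gap of 3.15 between the depots. The mean was 4.16 ± 0.13 (SD, n = 4) in paracardial and 9.36 ± 2.30 (SD, n = 3) in intra-abdominal fat. The difference was -5.20 ± 0.98 (SE, 95% confidence interval -7.54 to -2.87), which passed with a limma adjusted p of 0.025. The fit takes a common variance for both depots, whereas the SDs of Hoxc8 were 0.13 and 2.30. Its SE, interval and p may therefore be too narrow or too small, and a fit with separate variances was not run. A two-sided exact permutation test over the 35 splits of the arrays returned p = 0.0286, which is the smallest this design allows. Hoxc4 had the same p in this test and Hoxd8 had 0.0571, so the value is not particular to Hoxc8. Over all genes tested, 9.16% passed in either direction and 2.91% passed as lower in paracardial fat, so 1 of 10 Hox genes is close to the share among all genes. At an unadjusted limma p under 0.05 there were 2 of the 10, Hoxc8 and Hoxc4, against 24.4% of all genes.

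**Figure D1:**
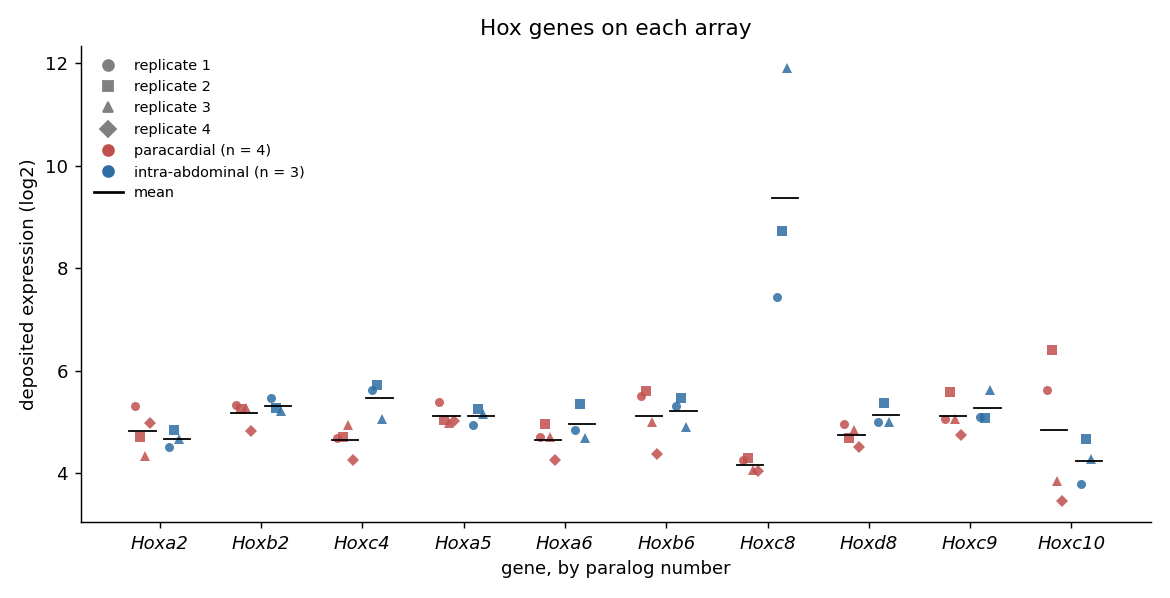
Deposited log2 value of each of the 10 Hox genes on each array, with genes ordered by paralog number on the horizontal axis, paracardial arrays (n = 4) in red, intra-abdominal arrays (n = 3) in blue, symbols for the replicate number and a bar for the mean. Hoxc8 is at 4.04 to 4.30 on the paracardial arrays and 7.45 to 11.92 on the intra-abdominal arrays, while Hoxc10 is spread widely within paracardial fat.

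On the paracardial arrays Hoxc8 lay near the bottom of the measured range. Between 0.96% and 5.54% of all genes had a lower value there, against 69.9%, 80.8% and 91.6% on the intra-abdominal arrays. Probes differ in affinity, so these shares place the probe within its array and do not rank Hoxc8 against other genes. Detection calls were not used here, and whether the paracardial values are above background is unknown.

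The size of the Hoxc8 difference depended on the intra-abdominal array. Within array set 1 it was -3.88 and within array set 2, with 1 array per depot and no test, it was -7.88. The limma adjusted p was 0.016 with the array set as a block and 0.018 over the 5 arrays of set 1 alone. Those fits called 1654 and 936 of all genes. Leaving out 1 array at a time ended the call in 5 of 7 fits. These were without paracardial array 1 (adjusted p = 0.074), 2 (0.068), 3 (0.067) or 4 (0.061) or intra-abdominal array 2 (0.083). Among all genes the same fits called 196, 338, 394, 677 and 185, against 851 with all 7 arrays. The 2 fits that kept the Hoxc8 call had 652 and 833. In all 7 the Hoxc8 difference stayed between -6.16 and -3.92. Without paracardial arrays 1 and 2 together the difference was -5.32 and the adjusted p 0.159, in a fit that called 1 of 9294 genes.

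Several cell type markers moved with Hoxc8 on the same arrays. In intra-abdominal fat Hoxc8 was lowest on array 1 and highest on array 3, and so were the mean of the adipocyte markers (14.4, 14.9 and 15.9) and that of the 4 measured of 7 endothelial markers (9.29, 9.53 and 12.4). Between depots 7 of the 10 adipocyte markers passed as lower in paracardial fat (median difference -7.27), and 2 of the 4 endothelial markers did (median -3.90). The mean of the 7 measured of 9 myeloid markers had the same order (7.35, 7.70 and 10.4), and 2 of them, Csf1r and Itgam, were lower in paracardial fat without overlap, though none of the 7 passed. The thymocyte mean had the opposite order (10.2, 7.58 and 7.0), while the thymocyte list's Cd1d1 had that of Hoxc8 (8.03, 9.20 and 11.4). The 2 measured of 12 fibroblast and preadipocyte markers, Pi16 and Lum, had a mean of 5.23 to 6.31 on paracardial and 6.53, 6.55 and 8.54 on intra-abdominal arrays, and neither passed. The part of these cell types in the Hoxc8 difference was not tested. Within paracardial fat the adipocyte mean was 6.08 and 6.24 on arrays 1 and 2 and 9.69 and 10.4 on arrays 3 and 4, and Hoxc8 was 4.25 and 4.30 and then 4.06 and 4.04. These Hoxc8 values lie so near the bottom of the range that a rise with the adipocyte markers might not be visible in them.

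Brown fat markers, named here because of the known role of Hoxc8, gave no call. The 4 measured of 7 had a mean of 5.19, 5.18, 5.75 and 9.60 in paracardial and 5.17, 5.07 and 5.67 in intra-abdominal fat. Ucp1, the uncoupling protein of brown fat, was 13.92 on paracardial array 4 and between 4.36 and 6.14 on the other 6 arrays. Hoxc8 was low on paracardial array 4 (4.04) as on the other 3 paracardial arrays, where Ucp1 was low too.

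**Figure D2:**
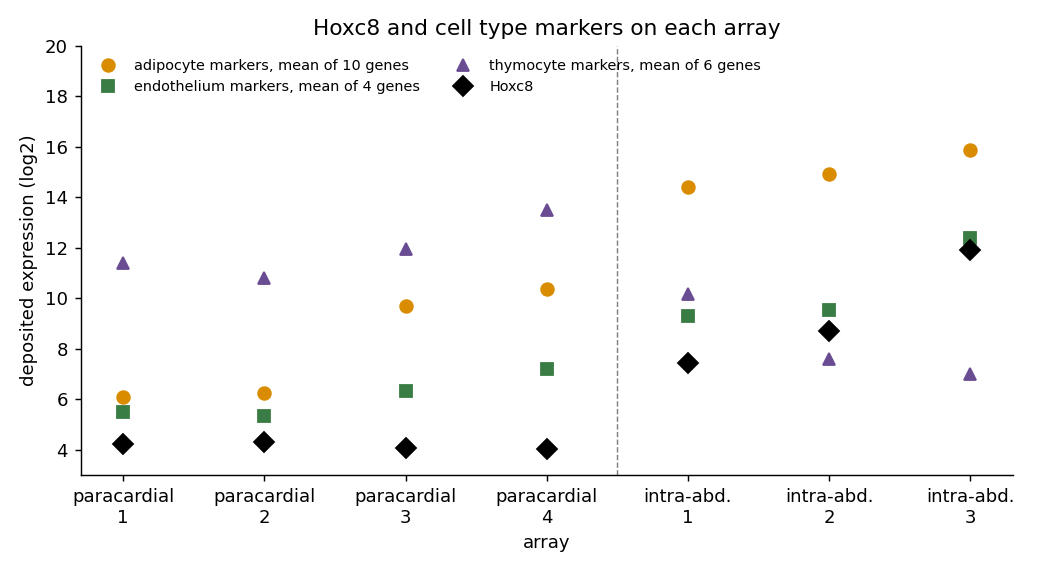
Deposited log2 value of Hoxc8 (black) and the mean log2 value of the measured adipocyte, endothelial and thymocyte markers on each of the 7 arrays, to be compared along the arrays and not between genes. Hoxc8 stays between 4.04 and 4.30 over the 4 paracardial arrays while the adipocyte mean goes from 6.08 to 10.4, and both are highest on intra-abdominal array 3.

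None of the other 3 Hoxc genes passed. Hoxc9, the neighbour of Hoxc8 on the posterior side, had log2 values of 5.05, 5.59, 5.05 and 4.75 in paracardial and 5.09, 5.07 and 5.63 in intra-abdominal fat. Its depots overlapped, and the difference was -0.15 with a 95% confidence interval of -0.80 to 0.49 (limma adjusted p = 0.778). Hoxc10, a more posterior gene of the hindlimb and lumbar region, had 5.63, 6.40, 3.83 and 3.46 on the paracardial and 3.78, 4.66 and 4.27 on the intra-abdominal arrays. Paracardial arrays 1 and 2, those with the lowest adipocyte markers, held its highest values, and on arrays 3 and 4 it was below the intra-abdominal mean of 4.24. The Hoxc10 difference was 0.59 with an interval of -1.22 to 2.41 (0.692), and it was -0.59 without paracardial arrays 1 and 2 (0.471).

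Hoxc4, the most anterior gene of its cluster and one that B and T lymphocytes also express, had log2 values of 4.68, 4.71, 4.94 and 4.25 in paracardial and 5.62, 5.72 and 5.05 in intra-abdominal fat. The depots did not overlap, by a gap of 0.111, as was the case for 26.7% of all genes in either direction and 8.78% with paracardial fat lower. The difference was -0.82 ± 0.26 (SE, interval -1.43 to -0.20) and the limma adjusted p 0.106. Hoxc4 thus did not pass over all genes. It passed in the fit with the array set as a block (difference -0.86, adjusted p = 0.015) and over array set 1 alone (-0.89, 0.033). Those fits called 1654 and 936 of the 9294 genes, against 851 as reported.

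Set side by side within each array, as a description and with no test, Hoxc8 minus Hoxc4 ran from -0.88 to -0.21 on paracardial and from 1.83 to 6.87 on intra-abdominal arrays. Hoxc8 minus Hoxc9 ran from -1.29 to -0.71 and from 2.36 to 6.29, and Hoxc8 minus Hoxc10 from -2.10 to 0.58 and from 3.67 to 7.65. The 3 series of values share the same Hoxc8 probe.

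Hoxd8, the paralog of Hoxc8 in the Hoxd cluster, had log2 values of 4.95, 4.67, 4.83 and 4.50 on paracardial and 5.0, 5.37 and 5.0 on intra-abdominal arrays. The depots did not overlap, by a gap of only 0.048, and the difference was -0.38 with an interval of -0.86 to 0.097 (limma adjusted p = 0.311). With Hoxc8 and Hoxc4, Hoxd8 makes 3 of 10 Hox genes with separate depots, all lower in paracardial fat, against 26.7% of all genes in either direction and 8.78% as lower. The other 7 overlapped, and none was separate in the other direction, in which 18.0% of all genes were.

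The probes of the anterior and middle genes of the Hoxa and Hoxb clusters differed little between depots, and all had low values. The share of all genes with a lower value on the same array was 3.07% to 29.78% for Hoxa2 and 16.74% to 32.86% for Hoxa5. It was 9.17% to 32.98% for Hoxa6, 21.2% to 34.47% for Hoxb2 and 11.67% to 39.58% for Hoxb6. Whether these values are above background is unknown, so a small difference does not show equal expression. Hoxa5, a regulator of lung and thoracic patterning whose expression is known in fat precursors, had 5.39, 5.02, 4.98 and 5.02 on paracardial and 4.93, 5.25 and 5.16 on intra-abdominal arrays. Its depots overlapped and the difference was -0.0084 with an interval of -0.47 to 0.45 (limma adjusted p = 0.987), so a difference beyond about 0.47 in either direction lies outside the interval. Hoxa6, its neighbour, had 4.69, 4.95, 4.69 and 4.26 on paracardial and 4.84, 5.34 and 4.67 on intra-abdominal arrays, a difference of -0.30 (interval -0.91 to 0.31, adjusted p = 0.538). Hoxa2, a hindbrain and neural crest gene, had 5.30, 4.70, 4.33 and 4.97 on paracardial and 4.50, 4.83 and 4.66 on intra-abdominal arrays, a difference of 0.16 (-0.48 to 0.80, 0.767).

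Of the Hoxb genes, Hoxb2, another hindbrain gene, had 5.33, 5.24, 5.27 and 4.82 on paracardial and 5.47, 5.27 and 5.20 on intra-abdominal arrays. The depots overlapped, with a difference of -0.15 (95% confidence interval -0.63 to 0.33, limma adjusted p = 0.704). Hoxb6, a middle gene of the trunk, had 5.51, 5.59, 5.0 and 4.37 on paracardial and 5.30, 5.46 and 4.89 on intra-abdominal arrays. Its depots overlapped too, and the difference was -0.10 (-0.93 to 0.73, 0.897).

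**Figure D3:**
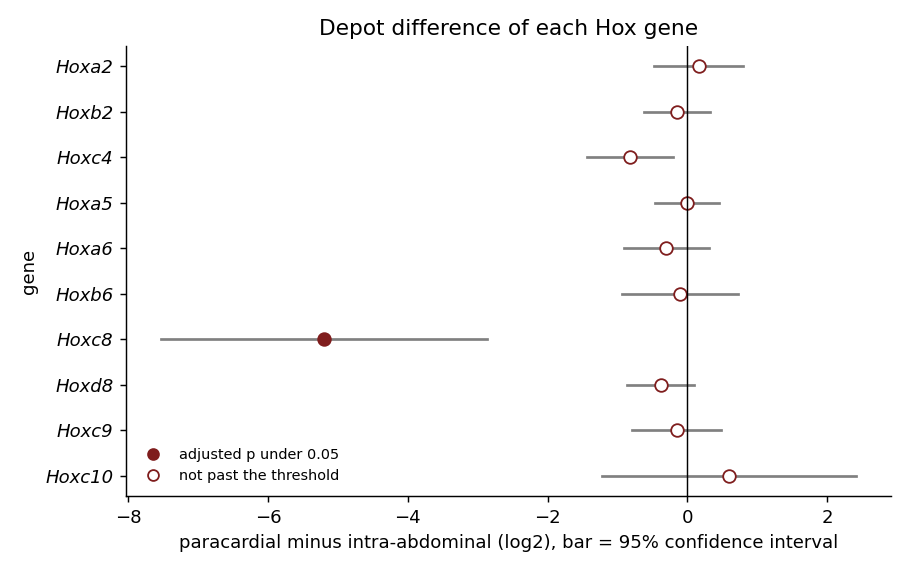
Difference of each Hox gene, paracardial minus intra-abdominal, on the log2 scale, with 95% confidence intervals from limma over 7 arrays, filled where the adjusted p was under 0.05. The interval of Hoxc8 (-7.54 to -2.87) lies apart from those of the other 9, and the intervals of 8 genes include 0. All intervals take a common variance for both depots, which the unlike spreads of Hoxc8 do not meet.

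By sign, 8 of the 10 Hox genes were lower and 2 higher in paracardial fat, with a median difference of -0.15 against 0.13 over all genes. The median over all genes rose to 0.24 without the dimmest 25% and to 0.45 without the dimmest 50%. Those filters left 4 and 1 of the 10 Hox genes, so -0.15 and 0.13 come from genes of unlike brightness. The values also differed between arrays of the same depot. In paracardial fat 8 of the 10 had their lowest value on array 4, the array with the lower 5th percentile. Intra-abdominal array 3 also had a lower 5th percentile, but only 4 of the 10 had their lowest intra-abdominal value there. In intra-abdominal fat 7 of the 10 had their highest value on array 2. Leaving out Hoxc8 and Hoxc10, all values of the other 8 lay between 4.25 and 5.72. Whether the values of these 8 are above background is unknown. Centring each array on its median moved the median difference of all genes from 0.13 to -0.024, and with it Hoxc8 to -5.36, Hoxc4 to -0.97 and Hoxd8 to -0.54. These 3 stayed lower after centring, repeated quantile normalization and cyclic loess.

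The Hox clusters also hold the genes of miR-196, which represses Hoxc8. Mir196a-2 lies between Hoxc10 and Hoxc9 in the RefSeq order and Mir196a-1 in the Hoxb cluster, and both give the same mature miR-196a-5p. Mir196b of the Hoxa cluster was not analysed here and is shown for its shared seed. The sequences are from RefSeq (GRCm38.p6), 5′ to 3′, with the seed (bases 2 to 8) in capitals; miR-196a-5p is at chr15:102973365-102973386 and chr11:96265187-96265208, both on the plus strand, and miR-196b-5p at chr6:52230129-52230150 on the minus strand.
miR-196a-5p: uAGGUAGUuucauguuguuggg
miR-196b-5p: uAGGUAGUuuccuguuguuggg
The 3 genes share 1 seed, AGGUAGU. The array reports on the microRNA genes, and the mature miRNA itself cannot be told from the precursor here. Mir196a-1 had log2 values of 4.68, 4.59, 4.11 and 4.22 on paracardial and 4.81, 5.08 and 4.59 on intra-abdominal arrays. The depots overlapped, and the difference was -0.42 with an interval of -0.97 to 0.13 (limma adjusted p = 0.329). Mir196a-2 had 4.62, 4.11, 5.27 and 4.39 and then 4.42, 4.88 and 5.30, a difference of -0.27 (adjusted p = 0.692). Neither passed. Their values of 4.11 to 5.30 are low, and whether they are above background is unknown. The part of miR-196a in the Hoxc8 difference was not tested. Mir196a-1 and Mir196a-2 were the only ones measured of 16 listed non-coding RNAs of the Hox clusters.

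Start-site sequence was given for 5 of the 10 genes, namely Hoxa2, Hoxc4, Hoxa5, Hoxa6 and Hoxd8. Of these, Hoxc4 and Hoxd8, the 2 with separate depots, are shown beside Hoxa5, whose depots overlapped and which, unlike Hoxa2 and Hoxa6, also holds the motif marked, from 250 bases before to 50 after the RefSeq start (GRCm38.p6). Capitals mark matches to AGGTCA, the half-site bound by retinoic acid receptors and other nuclear receptors, on either strand. Hoxc4 is at chr15:103034145-103034444 on the plus strand, Hoxd8 at chr2:74704365-74704664 on the plus strand and Hoxa5 at chr6:52204538-52204837 on the minus strand.
Hoxc4: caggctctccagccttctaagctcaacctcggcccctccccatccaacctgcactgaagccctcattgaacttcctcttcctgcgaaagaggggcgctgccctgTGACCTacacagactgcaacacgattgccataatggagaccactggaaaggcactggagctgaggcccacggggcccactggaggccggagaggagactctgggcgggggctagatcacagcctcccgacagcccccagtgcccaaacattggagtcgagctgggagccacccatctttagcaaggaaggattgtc
Hoxd8: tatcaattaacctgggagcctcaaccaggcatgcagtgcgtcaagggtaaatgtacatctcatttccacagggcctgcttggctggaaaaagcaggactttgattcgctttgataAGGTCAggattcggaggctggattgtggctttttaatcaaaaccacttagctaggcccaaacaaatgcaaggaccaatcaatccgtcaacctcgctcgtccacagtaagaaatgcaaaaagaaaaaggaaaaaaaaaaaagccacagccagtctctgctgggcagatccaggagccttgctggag
Hoxa5: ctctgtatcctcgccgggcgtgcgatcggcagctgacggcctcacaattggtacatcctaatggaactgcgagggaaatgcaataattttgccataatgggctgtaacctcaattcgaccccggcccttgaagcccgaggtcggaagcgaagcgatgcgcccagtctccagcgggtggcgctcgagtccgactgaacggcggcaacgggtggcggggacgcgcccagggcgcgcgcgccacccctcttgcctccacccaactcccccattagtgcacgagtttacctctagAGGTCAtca
Of the 5 windows 3 held 1 match to AGGTCA, those shown, and Hoxa2 and Hoxa6 held none. Over all 32851 promoter windows of the same length 16.3% held at least 1. Other motifs were also searched on both strands. TAATTA, a homeodomain core, occurred in none of the 5 windows (5.29% of all windows), and so did TATAAA (13.6%). TGATNNAT, the joint site of PBX and HOX proteins, occurred once, in Hoxa2 (8.85% of all windows), and no match overlapped another motif. Hoxa5 and Hoxa6 held 29 and 26 CpG dinucleotides and Hoxc4, Hoxa2 and Hoxd8 held 9, 9 and 6, against a median of 7 over all windows.

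Genes that act on the Hox clusters were followed through lists of regulators. Polycomb proteins keep silent Hox genes closed, and of 33 listed 4 were measured. Of these, 2 did not pass, none passed as lower in paracardial fat and 2 passed as higher. These were Rbbp7, a histone-binding subunit of Polycomb complex 2 that other chromatin complexes share, and Rnf2, the ubiquitin ligase of Polycomb complex 1. Rbbp7 had log2 values of 12.2, 12.4, 12.2 and 12.8 on paracardial and 10.8, 10.4 and 11.1 on intra-abdominal arrays, a difference of 1.66 ± 0.27 (SE, limma adjusted p = 0.018). Rnf2 had 9.47, 9.55, 9.75 and 10.2 and then 8.48, 8.73 and 8.82, a difference of 1.06 ± 0.23 (0.039). Both were apart between depots on all arrays. The list median was 0.79 against 0.13 over all genes, of which 6.25% passed as higher. Without the dimmest 50% of genes the median over all genes was 0.45.

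Cell cycle markers stood higher in paracardial fat, as the 2 Polycomb genes did, and the 2 calls depended on the scaling. In paracardial fat the cell cycle mean, Rbbp7 and Rnf2 were all highest on array 4. In intra-abdominal fat the cell cycle mean was highest on array 1, and Rbbp7 and Rnf2 were highest on array 3. The 3 measured of 10 cell cycle markers had a mean of 10.03 to 12.5 on paracardial and 7.85, 5.94 and 5.85 on intra-abdominal arrays. All 3 were higher in paracardial fat without overlap, and 2 of the 3 passed. The part of the cell cycle genes in the Polycomb values was not tested. After quantile normalization was applied again the difference was 0.76 for Rbbp7 (adjusted p = 0.221) and 0.68 for Rnf2 (0.116), and after cyclic loess it was 0.84 (0.063) and 0.61 (0.096). The call of Rbbp7 ended when paracardial array 1 (0.057) or 2 (0.053) or intra-abdominal array 2 (0.074) was removed. That of Rnf2 held when paracardial array 4 was removed (0.045) and for none of the other 6 arrays. Among all genes, fits with 1 array removed called 185 to 833, against 851 with none removed.

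Trithorax proteins oppose Polycomb and keep Hox genes open. Of 20 listed with the H3K27 demethylases 7 were measured and none passed, with 2 at an unadjusted limma p under 0.05 and a median difference of 0.49. The share at an unadjusted p under 0.05 was 24.4% over all genes. The largest difference was that of Rbbp5, a core subunit of the H3K4 methyltransferase complexes, with 8.19, 8.47, 8.14 and 9.34 on paracardial and 7.81, 7.34 and 7.61 on intra-abdominal arrays (0.95 ± 0.34 SE, adjusted p = 0.139). Kmt2a, the methyltransferase that maintains Hox expression, differed by 0.89 (0.196), and Kdm6b, an H3K27 demethylase, by 0.17 (0.808).

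Of 26 listed upstream regulators of Hox clusters 5 were measured and 1 passed as lower in paracardial fat. It was Aldh1a1, which makes retinoic acid, the signal that opens anterior Hox genes in the embryo. It had log2 values of 5.20, 4.77, 7.44 and 7.95 on paracardial and 11.3, 12.1 and 14.7 on intra-abdominal arrays, a difference of -6.35 ± 1.11 (SE, limma adjusted p = 0.021). Aldh1a1 was higher on paracardial arrays 3 and 4 than on 1 and 2, as the adipocyte markers were. Its call ended without paracardial array 1 (0.066) or 2 (0.055), without both (0.128) and without intra-abdominal array 2 (0.078). Those fits called 196, 338, 1 and 185 genes in all, against 851 as reported. The Aldh1a1 signal may be shared with the near-identical Aldh1a7. The related enzyme Aldh1a2 differed by -0.59 (0.444) and Cyp26b1, which breaks retinoic acid down, by 0.061 (0.893). The list median was -0.0058. No member of the TALE class, the DNA-binding partners of Hox proteins, was among the genes tested.

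Other homeobox, T-box and GATA genes that mark position gave no call. Of 43 listed 7 were measured, none passed, 2 had an unadjusted limma p under 0.05 (24.4% of all genes did) and the median difference was -0.049. Gata6, a GATA factor of heart, gut and peritoneal macrophages, had the largest difference. It had 6.09, 6.28, 6.53 and 6.14 on paracardial and 6.77, 7.33 and 6.87 on intra-abdominal arrays, without overlap, and a difference of -0.73 ± 0.22 (SE, adjusted p = 0.093).

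Genes were ranked by likeness without Hox genes, Gm, LOC and Rik symbols, olfactory and vomeronasal receptors, small RNAs, immune receptor segments and pseudogenes. Among the rest, those most like Hoxc8 over the 7 arrays were Adcy5, an adenylyl cyclase (Pearson's r = 0.998), and Rin2, a Rab5 exchange factor (0.995). Next came Cdh13, T-cadherin, which binds adiponectin (0.995), Slc6a13, a GABA and taurine transporter (0.995), and Sema6b, a semaphorin (0.994). Slc6a13 had log2 values of 5.51, 5.67, 5.89 and 6.06 on paracardial and 8.94, 9.64 and 12.5 on intra-abdominal arrays. Its difference of -4.57 (limma adjusted p = 0.021) passed, as did those of Cdh13 (-2.33, 0.022) and Adcy5 (-2.34, 0.030), while Rin2 (-1.12, 0.052) and Sema6b (-0.74, 0.086) did not. All 5 are highest on intra-abdominal array 3, as Hoxc8 is. They were picked for their likeness to Hoxc8 over these same arrays. Their lower values in paracardial fat and this peak therefore follow from the choice and add no separate result. The genes most like Hoxc4 were Ttpa (r = 0.998), Cldn22 (0.991), Cyp2j8 (0.971), Ifitm1 (0.970) and AU021092 (0.963), none of which passed (adjusted p = 0.068 to 0.295). With 7 arrays that share their depots and array sets, these r values describe the arrays and were not tested.

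**Figure D4:**
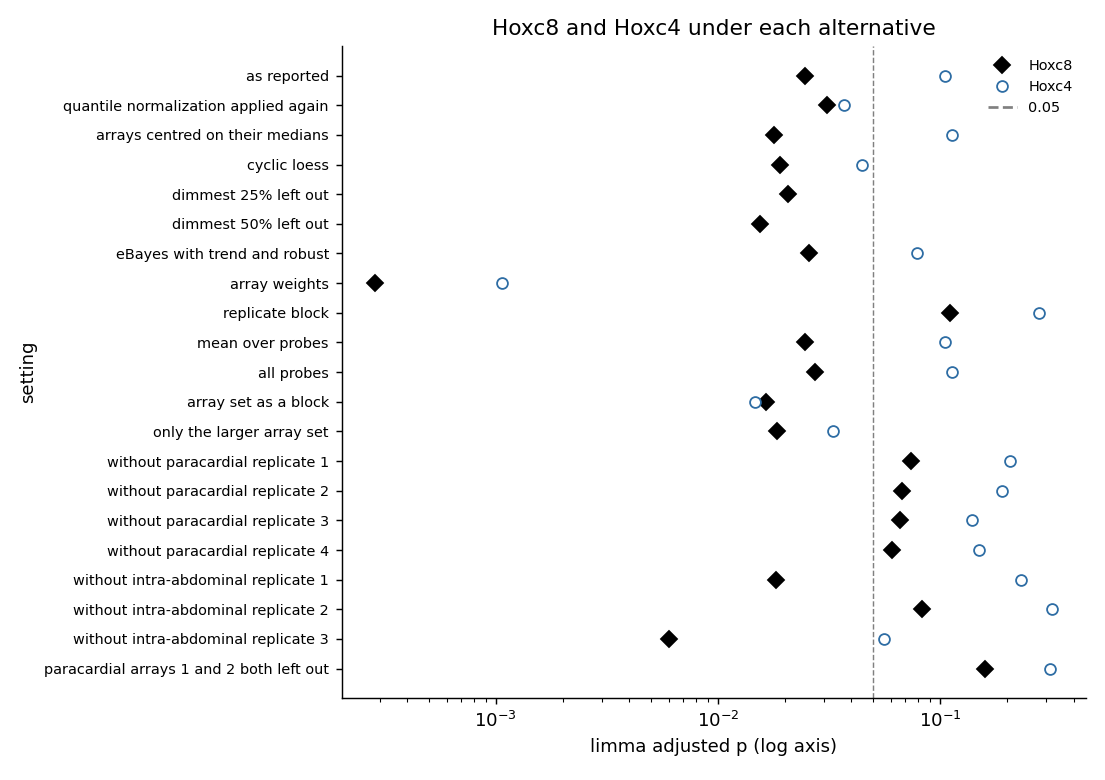
Limma adjusted p of Hoxc8 (filled) and Hoxc4 (open) on a log axis under each setting, with a dashed line at 0.05. Hoxc8 is past the line in 13 of 20 alternatives and Hoxc4 in 5 of 18, since the 2 filters on dim genes removed Hoxc4.

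Over all 20 alternatives the Hoxc8 difference ran from -6.16 to -3.88 and its adjusted p from 0.00029 to 0.159. For Hoxc4 the difference ran from -1.02 to -0.69 over 18 alternatives and the adjusted p from 0.0011 to 0.319. In none of these did either gene turn to higher in paracardial fat.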

How the data were processed

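RNA of 4 paracardial and 3 intra-abdominal fat samples was hybridised to Affymetrix arrays. The authors deposited a table of log2 values, for which the submitters' processing notes name RMA and the Affymetrix Expression Console, with tool versions, background step and genome not given in the sources used here. Log2 is read from the range and the method. Values end at an unexplained ceiling, 19.93 on the arrays of set 2 and 19.81 to 19.84 on those of set 1. Scanner files were not used here.

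Of 11949 probes, 9352 had exactly 1 symbol, 522 several and 2075 none; 5789 matched RefSeq (GRCm38.p6) by Entrez identifier, used for names and gene order. The probe with the highest mean was kept per gene. Groups were compared with limma 3.58.1 in R 4.3.3 (lmFit, eBayes without trend, two-sided, all 7 arrays, no covariate, 5 residual and 1.68 prior degrees of freedom), with Benjamini-Hochberg adjustment over 9294 genes and a threshold of 0.05. Named were all Hox genes and up to 6 members past the threshold per list or else the largest. The 5 genes most like Hoxc4 and Hoxc8 among those ranked were named too. Other list members were named after their values were seen. Members, lists and markers were chosen with earlier results of these data known. The labels do not say that replicate numbers pair the depots, so the main fit used no pairing. Deviations of same-numbered arrays from their depot means correlated at 0.048, 0.047 and -0.50. With so few arrays these values cannot show whether same-numbered samples share an animal. Joins and permutation tests used Python 3.11.15 (pandas 2.3.3, scipy 1.17.1). Alternatives covered scaling, dim genes, the eBayes form, array weights, blocks, probe choice and each array left out; leaving out paracardial arrays 1 and 2 together was chosen after seeing the data.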

Additional observations from a re-analysis of the deposited data

Results flagged for a closer look

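Among 10 Hox genes and 6 listed genes tested in the 4 paracardial arrays, a single array stood far from the others for 2 genes, where chance gives about 1 in 20. Hoxa5 was 5.39 on paracardial array 1 against 4.98 to 5.02 on the other 3. Hoxb2 was 4.82 on paracardial array 4 against 5.24 to 5.33 on the other 3.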

How the results depend on the processing

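Of the 10 Hox genes 1 passed as reported. The count was 2 (Hoxc4 and Hoxc8) after repeated quantile normalization, after cyclic loess, with the array set as a block and over array set 1 alone. Among all genes these fits called 910, 1024, 1654 and 936, against 851 as reported. The Hox count was 4 with array weights and 0 without paracardial arrays 1 and 2, and it ranged from 0 to 1 over the fits that left out 1 array. With the replicate block, which drops paracardial array 4 because its number has no partner, it was 0, and no gene of the series passed (0 against 851); Hoxc8 was then -5.16 (limma adjusted p = 0.111), and -6.16 to -3.92 with 1 array left out. Without paracardial arrays 1 and 2 Hoxc8 was -5.32, and 1 of 9294 genes passed in that fit. The Polycomb count, 2 as reported, was 0 after repeated quantile normalization, cyclic loess, eBayes with trend, the replicate block and without paracardial arrays 1 and 2, 4 with array weights, and 0 to 2 when 1 array was left out. The count of upstream regulators, 1 as reported, was 0 with the replicate block and without paracardial arrays 1 and 2, 2 with array weights, and 0 to 1 when 1 array was left out. With array weights 3 trithorax genes, 1 non-coding RNA and 2 other positional genes passed, none of which did as reported; this fit called 3614 of 9294 genes. Signs turned in 5 Hox genes, none of which passed. Hoxa5 became 0.017 with array weights, 0.021 with the replicate block and 0.043 over array set 1 (-0.11 to 0.058 with 1 array left out). Hoxb6 became 0.010 with array weights and 0.15 with the replicate block (-0.26 to 0.15). Hoxc9 became 0.11 with array weights and 0.15 over array set 1 (-0.31 to 0.028). Without paracardial arrays 1 and 2, Hoxa2 became -0.015 and Hoxc10 -0.59. The cause of these moves was not tested. The filters on dim genes left 4 and 1 of the 10 Hox genes. Of all calls, 31.7% were lower as reported, 52.1% after repeated quantile normalization and 55.8% after cyclic loess. Signal over background is unknown, which limits what can be said of the low values.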

Other observations

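The probe shared by Hoxb4 and Mir10a had log2 values of 4.66, 4.78, 4.69 and 4.24 in paracardial and 4.69, 5.01 and 4.39 in intra-abdominal fat. Like 8 of the 10 Hox genes it was lowest in paracardial fat on array 4. Of the 10 Hox genes 3 had the same value to 6 decimals on 2 arrays (Hoxb2, Hoxd8 and Hoxc9), as did 19.0% of all genes. The RefSeq spans of 7 of the Hox genes overlap another gene, among them Hoxa5 and Hoxa6 with Hoxa3 and Hoxb6 with Hoxb5os, so the transcript behind those probes is uncertain, while Hoxa2, Hoxc8 and Hoxc10 overlap none.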
